A study of Rattus norvegicus with 23 samples.

Results

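RNA of liver sinusoidal endothelial cells (LSECs) was compared with RNA of hepatocytes, both separated at day 12 from the 3DHL model, a 3D culture of hepatocytes and LSECs that holds no Kupffer cells (KCs). The comparison took 6 of the 23 arrays of the series, namely the 3 arrays titled as LSECs and the 3 titled as hepatocytes of that model, and 14218 genes, each through its brightest probe set by the mean of the 23 arrays. The other arrays hold LSECs, hepatocytes and KCs of the 3DHLK model, which adds KCs, hepatocytes of a hepatocyte monolayer (HM) and of a collagen sandwich (CS), all at day 12, and KCs at day 3. They entered the fit, and some are given beside the results. The values are log2 expression values, so 1 unit is a 2-fold difference, and each difference is the LSEC fraction minus the hepatocyte fraction.

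Both fractions came from untreated cultures of cells from female Lewis rats. The hepatocytes were grown as monolayers on collagen, a detachable membrane of chitosan and hyaluronic acid was laid on top, and the LSECs were seeded on the membrane. The LSECs came from the same isolation as the hepatocytes, were obtained by differential adhesion and had been grown on fibronectin. At day 12 magnetic beads coated with SE-1, an antibody to LSECs, were used to collect the LSEC fraction with a magnet. Whether the 3 arrays of a fraction stand for separate animals is not in the labels. The p-values and standard errors rest on 1 spread per gene, pooled within the groups of the whole series, KCs of day 3 included. They do not rest on the compared arrays alone, and part of the pooled spread may be technical. Fitted on only the arrays compared, more genes passed the threshold given below. The counts were 4174 against 2624 genes higher, and 4227 against 3113 lower.

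LSECs are the fenestrated cells that line the sinusoids of the liver, and they are known for scavenger receptors that clear waste from the blood. Hepatocytes make most plasma proteins, urea and bile acids, and they carry the cytochrome P450 enzymes that oxidise drugs and steroids. Hepatocytes kept in culture lose part of this programme and can take up keratins, vimentin and matrix genes, while stellate cells and fibroblasts are the usual source of fibrillar collagen.

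The LSEC fraction did not carry the defining genes of LSECs above the level seen in hepatocyte cultures. Stab2, a scavenger receptor of LSECs, read 5.81, 5.88 and 5.86 in the LSEC fraction, against 5.55, 5.82 and 5.70 in the hepatocyte fraction, and its mean was 5.77 in HM and 5.87 in CS. Lyve1, a hyaluronan receptor, read 5.84, 5.69 and 5.63 in the LSEC fraction, against 5.53, 5.37 and 5.48 in the hepatocyte fraction. Pecam1, an adhesion molecule of all endothelia, read 5.93, 5.89 and 6.15 in the LSEC fraction, against 5.87, 6.03 and 5.96 in the hepatocyte fraction. The fractions overlapped for Stab2 and Pecam1, and for Lyve1 the LSEC arrays lay just above the hepatocyte arrays. Stab1, Stab2, Lyve1, Fcgr2b, Pecam1, Kdr, Vwf, Tek and Nos3 all missed the threshold, a Benjamini-Hochberg adjusted p under 0.05 in limma over all 14218 genes, with log2 differences of -0.34 for Fcgr2b to 0.40 for Nos3. A second probe set of Kdr, a receptor for VEGF, was called lower at -1.68, at low means of 4.09 in the LSEC fraction and 5.77 in the hepatocyte fraction. For Gata4, a further sinusoidal marker, the probe set used gave 0.34 without a call, and a second one was called higher at 0.89.

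Of the 12 sinusoidal endothelial markers measured, 1 was called higher and 2 lower, and of 27 pan-endothelial markers 7 were called higher and 3 lower. Of all genes, 40.4% were called, 18.5% higher and 21.9% lower. The sinusoidal shares, 8.33% higher and 16.7% lower, lie below both. The pan-endothelial shares lie above the background for higher calls, at 25.9%, and below it for lower calls, at 11.1%. Plvap, Dll4 and Sox17 were among the pan-endothelial markers called higher, at 0.74, 0.61 and 0.45, as was S1pr1, given below. A second probe set of Dll4 and one of Sox17 were also called, each at 0.53, and another of Sox17 at -0.17 was not. The 3 called lower were Cav1 at -4.11, Thbd at -2.08 and Eng at -0.56, and the other probe sets of Thbd were called lower too. Of the sinusoidal markers, F8 was called higher at 0.35, and Ehd3 and Mrc1 were called lower at -1.24 and -0.88. The median log2 difference was 0.14 over the sinusoidal and 0.24 over the pan-endothelial list, beside 0.02 over all genes. Markers of cells that no label places in these cultures moved alike: 5 of 13 lymphocyte markers and 3 of 6 erythroid markers were called higher, none was called lower, and the medians were 0.32 and 0.40. In the 3555 genes of lowest level, at 3.33 to 6.77, the median difference was 0.22, with 791 genes called higher and 240 lower, while in the 3555 genes of highest level it was -0.11, with 492 higher and 1032 lower.

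Hepatocyte genes stood at high levels in the LSEC fraction too. Alb, which encodes albumin, read 14.51, 14.56 and 14.45 in the LSEC fraction, against 14.46, 14.47 and 14.52 in the hepatocyte fraction, and the difference of 0.02 ± 0.30 (SE) was not called. The highest value of any probe set was 14.64 to 14.74 on the LSEC arrays and 14.62 to 14.69 on the hepatocyte arrays. Equal Alb values so near the top of the range need not mean equal RNA. The mean of 31 plasma protein genes was 12.62 ± 0.02 in the LSEC fraction and 12.25 ± 0.08 in the hepatocyte fraction (SD, n = 3 arrays each), with 10 called higher, 2 lower and a median of 0.30. A level on these arrays cannot tell fewer cells of a type from less RNA per cell, and the share of hepatocytes in the LSEC fraction was not measured. The label LSEC was thus not borne out by the defining endothelial genes given above, none of which was called higher on the probe set used. Whether that reflects fewer LSECs or less of these RNAs per LSEC was not tested. The names LSEC fraction and hepatocyte fraction below stand for what the labels call them.

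**Figure D1:**
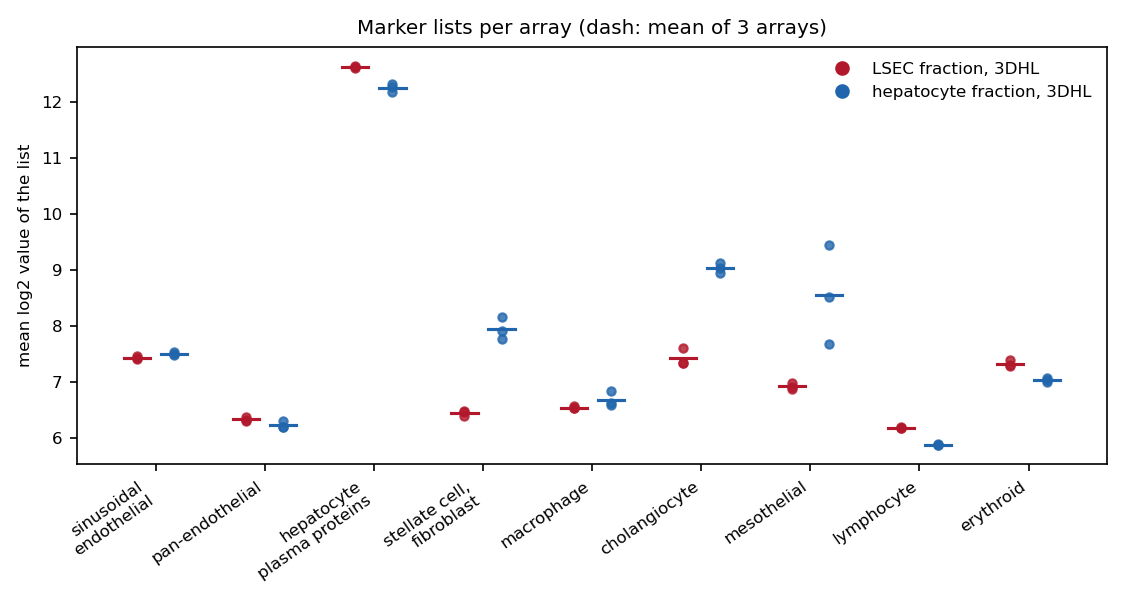
Mean log2 value (vertical axis) of 9 marker lists on each array of the LSEC fraction (red, left of each pair) and the hepatocyte fraction (blue, right), with a dash at the mean of 3 arrays. The endothelial lists lie level between the fractions, plasma proteins reach 12.62 in the LSEC fraction and 12.25 in the hepatocyte fraction, and stellate cell, cholangiocyte and mesothelial lists are lower in the LSEC fraction.

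Markers of stellate cells, bile ducts and mesothelium ran lower in the LSEC fraction. The 24 stellate cell and fibroblast markers averaged 6.39 to 6.47 on the LSEC arrays, against 7.75 to 8.15 on the hepatocyte arrays, with 12 called lower and none higher. The 9 cholangiocyte markers averaged 7.33 to 7.60 on the LSEC arrays, against 8.95 to 9.11 on the hepatocyte arrays, with 7 called lower and 1, Prom1, higher. The 6 mesothelial markers averaged 6.86 to 6.98 on the LSEC arrays, against 7.67, 8.51 and 9.44 on hepatocyte replicates 2, 1 and 3, and 4 were called lower. Hepatocyte replicate 2 was thus low and replicate 3 high in this list, which includes Msln and Upk1b, genes of the cells that cover the liver surface. Of 18 macrophage markers, 3 were called each way, and Ptprc, the pan-leukocyte antigen, differed by 0.33 (adjusted p = 0.053).

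The arrays themselves differed between the fractions. The gap between the 3′ and 5′ control probe sets, which grows where cDNA is cut short, was 0.73 to 0.86 for actin on the LSEC arrays, against 1.07 to 1.20 on the hepatocyte arrays, and -0.24 to -0.19 for Gapdh on the LSEC arrays, against 0.19 to 0.40 on the hepatocyte arrays. The interquartile range of all probe sets was 3.03 to 3.11 on the LSEC arrays and 3.28 to 3.34 on the hepatocyte arrays. Replicates correlated at 0.993 to 0.996 within the LSEC fraction and at 0.994 to 0.995 within the hepatocyte fraction, and pairs across the fractions at 0.955 to 0.966. The part of RNA quality or of other cells in the results below was not tested.

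Of the genes called, 229 were at least 2-fold higher in the LSEC fraction, 1.61% of all genes, and 646 at least 2-fold lower, 4.54%. The 3 arrays of a fraction all lay on one side of the 3 of the other for 2585 of the 2624 genes called higher and for 3087 of the 3113 called lower, and for 66.3% of all genes. Genes with several probe sets allow a further look. Of 80 such genes at least 2-fold higher, 55 had another probe set called the same way and none opposite, 4 had one called the opposite way and 21 had no other called. Of 195 such genes at least 2-fold lower, the counts were 106, 16 and 73. Without hepatocyte replicate 3 the genes called higher numbered 1651.

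The 12 largest rises were led by a steroid-metabolising P450 that is specific to female rat liver. This gene, Cyp2c12, read 13.01, 12.98 and 12.88 in the LSEC fraction, against 8.74, 8.58 and 9.36 in the hepatocyte fraction (log2 difference 4.06 ± 0.29 (SE), adjusted p = 6.3e-10). Cyp2c23, an arachidonic acid epoxygenase, read 12.09, 12.09 and 11.96 in the LSEC fraction, against 8.77, 8.43 and 8.86 in the hepatocyte fraction (3.36 ± 0.14, adjusted p = 2.9e-13). All LSEC arrays were above all hepatocyte arrays for both. Cldn2, a tight junction claudin that forms cation pores, read 11.75, 11.71 and 11.67 in the LSEC fraction, against 8.41, 8.09 and 8.31 in the hepatocyte fraction (3.44 ± 0.14, adjusted p = 2.9e-13). Mbl2, a mannose-binding lectin that hepatocytes secrete, read 11.57, 11.56 and 11.56 in the LSEC fraction, against 8.98, 8.89 and 8.79 in the hepatocyte fraction (2.67 ± 0.12, adjusted p = 1.1e-12). A second probe set of Mbl2 gave 2.59.

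Cxcl2, a chemokine that attracts neutrophils, read 9.59, 9.61 and 9.57 in the LSEC fraction, against 5.64, 7.04 and 5.69 in the hepatocyte fraction (3.47 ± 0.30, adjusted p = 1.3e-08). Hepatocyte replicate 2 stood above the other hepatocyte arrays but below every LSEC array. Pde4b, a phosphodiesterase that breaks down cyclic AMP, differed by 3.11 and by 3.27 on its second probe set. Among lipid genes, Pnpla3, a lipid droplet lipase, differed by 2.87, Fads2, the delta-6 desaturase, by 2.83, and G0s2, an inhibitor of fat breakdown, by 2.68, and for all of these the fractions did not overlap. For the remaining 3 of the 12, S1pr1, Fcrla and Slk, other probe sets did not carry the rise. S1pr1, a receptor for sphingosine 1-phosphate on endothelium, read 7.95, 8.27 and 8.23 in the LSEC fraction, against 4.52, 4.72 and 4.42 in the hepatocyte fraction, while its second probe set averaged 4.35 in the LSEC fraction and 4.20 in the hepatocyte fraction. Fcrla differed by 3.74 on one probe set and by 0.19 on another, and Slk, a kinase, by 3.41 on one and by -0.45 and 0.27 on the others.

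The 12 largest falls held matrix and mesenchymal genes beside a xenobiotic P450. Sparc, a matrix glycoprotein, read 6.39, 6.13 and 5.94 in the LSEC fraction, against 11.47, 11.44 and 12.35 in the hepatocyte fraction (-5.60 ± 0.52, adjusted p = 5.0e-08). Anxa1, a calcium-dependent phospholipid-binding annexin, read 6.68, 6.67 and 6.79 in the LSEC fraction, against 11.75, 11.79 and 12.11 in the hepatocyte fraction (-5.17 ± 0.29, adjusted p = 1.5e-11). Cav1, the coat protein of caveolae and itself an endothelial gene, read 7.54, 7.69 and 7.81 in the LSEC fraction, against 11.57, 11.76 and 12.06 in the hepatocyte fraction (-4.11 ± 0.34, adjusted p = 8.8e-09). No array of one fraction overlapped the other for these. Efemp1, a matrix fibulin, was even in the LSEC fraction at 4.16, 4.22 and 4.18 but ran over 8.93, 6.03 and 11.34 in the hepatocyte fraction, lowest in replicate 2 and highest in replicate 3 like the mesothelial list. Nefl, a neurofilament chain, differed by -4.61, Pkib, an inhibitor of protein kinase A, by -4.42, Col1a2 by -4.20, Col5a2 by -4.11, Sdr16c5, a retinol dehydrogenase, by -4.06, Plau, which encodes urokinase, by -4.03, and Acot1, an acyl-CoA thioesterase, by -4.01.

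**Figure D2:**
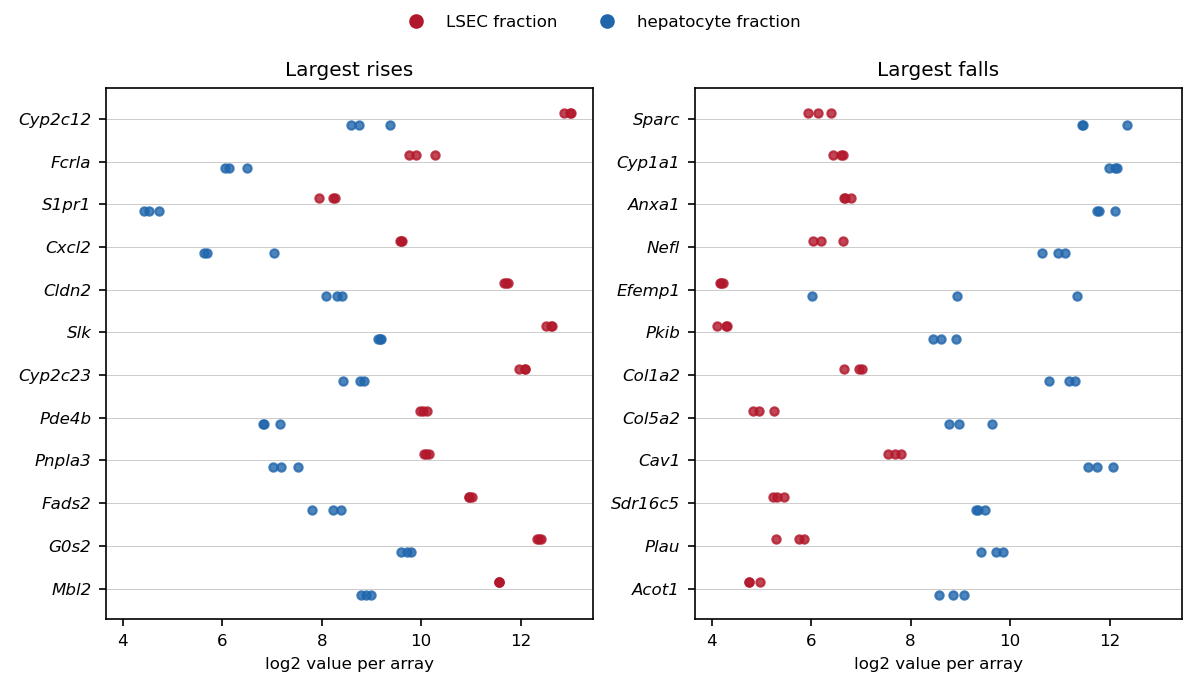
Log2 value per array (horizontal axis) of the 12 genes with the largest rises (left) and falls (right), with the LSEC fraction in red above the hepatocyte fraction in blue for each gene. Arrays of the fractions do not overlap for any of them, and Efemp1 spreads from 6.03 to 11.34 in the hepatocyte fraction.

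Cytochromes P450 moved both ways. Of 43 members measured, including the reductase Por, 15 were called higher and 15 lower, 34.9% each way beside 18.5% and 21.9% of all genes. The 4 largest rises were Cyp2c12, Cyp2c23, Cyp2e1 and Cyp2a1. Cyp2e1, which oxidises ethanol and is a gene of the zone around the central vein, read 10.09, 9.84 and 10.05 in the LSEC fraction, against 7.51, 7.38 and 8.09 in the hepatocyte fraction (2.33 ± 0.20, adjusted p = 1.3e-08). Cyp2a1, a testosterone hydroxylase, read 9.02, 9.03 and 9.01 in the LSEC fraction, against 7.13, 7.10 and 7.12 in the hepatocyte fraction, so that the fractions lay nearly 2 units apart with almost no spread. The largest falls after Cyp1a1 were Cyp2c11 and Cyp3a23-3a1, a pregnane X receptor target, which averaged 10.31 ± 0.14 in the LSEC fraction and 12.96 ± 0.05 in the hepatocyte fraction (SD, n = 3 arrays each, log2 difference -2.65 ± 0.21, adjusted p = 4.0e-09). Cyp4a1, a fatty acid hydroxylase, differed by -1.53, and Cyp7a1, the rate-limiting enzyme of bile acid synthesis, by 0.42 without a call.

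**Figure D3:**
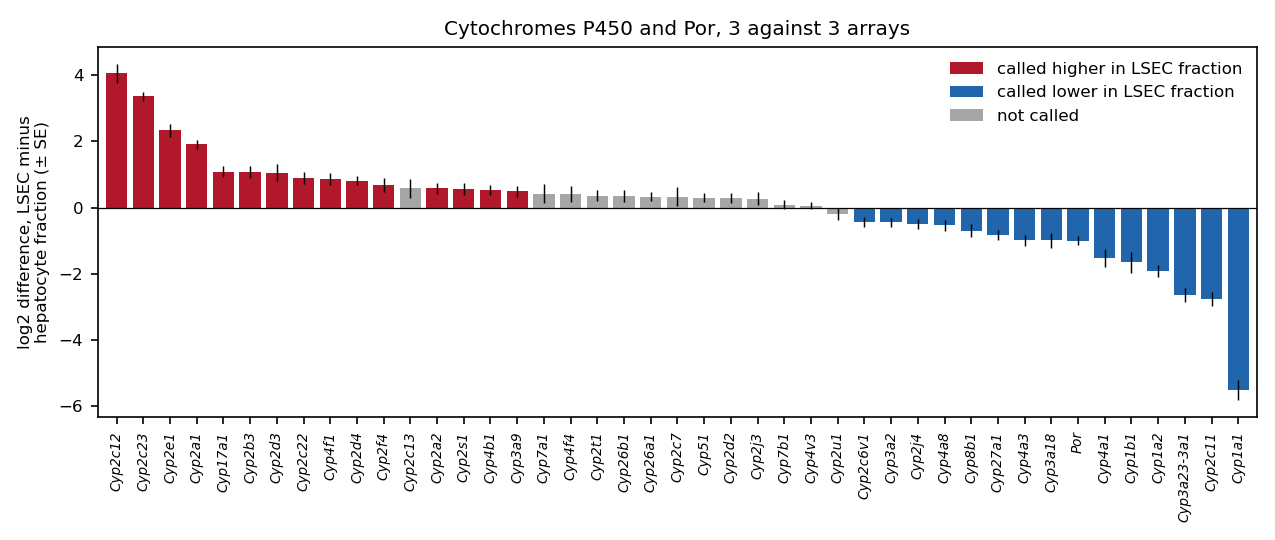
Log2 difference, LSEC minus hepatocyte fraction (vertical axis), of 43 P450 genes including Por, from 3 arrays of each fraction. The standard error is that of the fit, with the spread pooled within the groups of the whole series. Red bars were called higher in the LSEC fraction, blue bars lower, and grey bars were not called, and the values run from 4.06 for Cyp2c12 to -5.52 for Cyp1a1.

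Sex-biased genes of rat liver were called higher more often than all genes, and lower about as often. The pituitary pattern of growth hormone sets these genes apart in male and female rats. The male-specific Cyp2c11 read 4.72, 4.72 and 4.82 in the LSEC fraction, against 7.56, 7.24 and 7.75 in the hepatocyte fraction (-2.76 ± 0.20, adjusted p = 1.4e-09), opposite to the female-specific Cyp2c12. Cux2, a female-biased repressor, rose by 1.49 ± 0.21, while Bcl6, a male-biased repressor, differed by -0.96 ± 0.12. Igf1, the main growth hormone target of the liver, read 11.82, 11.98 and 11.95 in the LSEC fraction, against 9.74, 9.66 and 9.68 in the hepatocyte fraction (2.23 ± 0.17, adjusted p = 3.0e-09). Of 18 genes in the list, 9 were called higher (50%) and 4 lower (22.2%), beside 18.5% and 21.9% of all genes. Sult2a2, a hydroxysteroid sulfotransferase, went against the direction of Cyp2c12 at -1.52. The female-biased A1bg and Prlr were called higher at 0.78 and 1.05, but so was the male-specific Cyp2a2 at 0.58, while the male-specific Cyp3a2 was called lower at -0.44.

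Aryl hydrocarbon receptor (AhR) targets were lower. AhR is a ligand-activated factor that pairs with Arnt and binds DNA elements with the core GCGTG. Cyp1a1, its most inducible target, read 6.44, 6.60 and 6.63 in the LSEC fraction, against 11.99, 12.10 and 12.14 in the hepatocyte fraction (-5.52 ± 0.30, adjusted p = 1.4e-11). Aldh3a1, an aldehyde dehydrogenase, read 6.45, 6.97 and 6.56 in the LSEC fraction, against 10.21, 10.12 and 10.18 in the hepatocyte fraction (-3.51 ± 0.16, adjusted p = 9.7e-13). Nqo1, a quinone reductase, read 8.20, 8.54 and 8.69 in the LSEC fraction, against 10.84, 10.88 and 11.19 in the hepatocyte fraction (-2.49 ± 0.16, adjusted p = 1.9e-10). The fractions lay wholly apart for these. Cyp1a2 differed by -1.92, Cyp1b1 by -1.65 and Tiparp by -0.60, so 6 of 9 genes of the list were called lower, beside 21.9% of all genes, and the median was -1.65. Ahr itself differed by -0.05 without a call, and Arnt was called higher at 0.83.

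Set beside the other hepatocyte cultures, Cyp1a1 averaged 6.56 in the LSEC fraction, 12.08 in the hepatocyte fraction, 10.58 in HM and 10.94 in CS, so the hepatocyte fraction lay above both and the LSEC fraction far below both. Aldh3a1 averaged 6.66 in the LSEC fraction, 10.17 in the hepatocyte fraction, 7.89 in HM and 7.58 in CS. The core GCGTG was searched on both strands in the 300-base RefSeq promoter windows (around the start of the gene, build GRCr8). It lay in 3 of the 4 windows given for the genes called lower, those of Cyp1b1, Tiparp and Nqo1, but also in 45.8% of the windows of all genes tested, and the window of Cyp1a2 held none.

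Among chemokines and genes of the NF-kappaB response the calls were mainly upward in the LSEC fraction. NF-kappaB is the factor through which cytokines and bacterial products switch on chemokines and their own inhibitor. Of 30 chemokines, 14 were called higher and 1 lower (46.7% and 3.33%, beside 18.5% and 21.9% of all genes), with a median of 0.41, and of 37 cytokine and NF-kappaB genes 19 were called higher and 4 lower, with a median of 0.42. Cxcl1, a partner of Cxcl2 in attracting neutrophils, read 11.84, 12.11 and 11.63 in the LSEC fraction, against 9.93, 10.45 and 10.18 in the hepatocyte fraction (1.68 ± 0.15, adjusted p = 2.1e-08). Cxcl11, a T cell chemokine induced by interferon, read 8.47, 8.18 and 8.26 in the LSEC fraction, against 5.71, 5.48 and 5.79 in the hepatocyte fraction (2.64 ± 0.14, adjusted p = 1.0e-11). Cxcl9 and Cxcl10, of the same kind, differed by 2.06 and 1.36. No hepatocyte array reached an LSEC array for these genes.

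Ccl20 was the 1 chemokine called lower, at -0.82. Il33, an alarmin of the interleukin 1 family, read 8.69, 8.39 and 8.90 in the LSEC fraction, against 6.26, 6.15 and 6.07 in the hepatocyte fraction (2.50 ± 0.18, adjusted p = 8.6e-10). Its receptor Il1rl1 went the other way, at 8.95, 8.62 and 8.70 in the LSEC fraction, against 11.20, 11.57 and 11.52 in the hepatocyte fraction (-2.67 ± 0.30, adjusted p = 7.2e-07). Nfkbia, the inhibitor that NF-kappaB induces, read 10.88, 10.82 and 10.87 in the LSEC fraction, against 9.70, 9.89 and 9.58 in the hepatocyte fraction (1.13 ± 0.13, adjusted p = 1.3e-06), and the fractions did not overlap. Lif, a cytokine of the interleukin 6 family, differed by 1.51, Tnf by 1.10, Icam1, an adhesion molecule, by 0.95, and Il6 by -0.12 without a call. Nfkbiz was called lower at -0.67, but its second probe set was called higher at 0.86.

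The motif GGAATTTCC, a form of the NF-kappaB site, lay on either strand in the promoter windows of 4 of the 11 chemokines called higher that have a window, in none of the 11 not called and in 47 of the 11734 windows of all genes tested. The windows of Cxcl1, Cxcl6, Cxcl10 and Cxcl11 are shown because they carry it, with that of Nfkbia. The windows of Cxcl2, Cxcl9, Il33 and Tnf, all called higher, did not hold it. In the cytokine and NF-kappaB list the motif lay in 3 of 15 windows of genes called higher (Nfkbia, Nfkb1 and Icam1), in 1 of 4 of genes called lower (Nfkbiz) and in none of 11 not called. A match is a string of letters and no measured site. Only this exact string was searched, so a window without it may hold another form of the site. The counts therefore do not separate called from uncalled genes by NF-kappaB sites in general. Capitals mark the motif on the strand shown, where GGAAATTCC is its reverse complement, in sequences from RefSeq build GRCr8, for Cxcl1 at chr14:17479272-17479571 (minus strand), Cxcl6 at chr14:17596368-17596667 (minus), Cxcl10 at chr14:15988816-15989115 (plus), Cxcl11 at chr14:15973478-15973777 (plus) and Nfkbia at chr6:78597023-78597322 (minus).
Cxcl1: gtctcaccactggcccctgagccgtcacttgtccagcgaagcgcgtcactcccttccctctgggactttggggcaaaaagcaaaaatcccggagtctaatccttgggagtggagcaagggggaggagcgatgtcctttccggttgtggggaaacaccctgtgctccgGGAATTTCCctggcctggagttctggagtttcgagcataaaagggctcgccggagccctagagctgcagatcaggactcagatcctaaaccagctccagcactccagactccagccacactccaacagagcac
Cxcl6: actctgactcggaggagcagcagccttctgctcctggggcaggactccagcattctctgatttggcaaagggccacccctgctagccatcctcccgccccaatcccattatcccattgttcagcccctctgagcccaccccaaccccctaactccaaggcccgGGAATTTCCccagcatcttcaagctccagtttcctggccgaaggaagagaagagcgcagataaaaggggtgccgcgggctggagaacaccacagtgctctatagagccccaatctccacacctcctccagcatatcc
Cxcl10: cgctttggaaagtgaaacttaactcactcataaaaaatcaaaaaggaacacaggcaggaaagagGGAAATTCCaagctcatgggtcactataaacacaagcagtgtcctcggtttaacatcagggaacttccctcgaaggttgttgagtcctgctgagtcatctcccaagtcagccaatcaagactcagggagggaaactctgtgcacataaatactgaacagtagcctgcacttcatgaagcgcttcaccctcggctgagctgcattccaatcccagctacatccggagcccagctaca
Cxcl11: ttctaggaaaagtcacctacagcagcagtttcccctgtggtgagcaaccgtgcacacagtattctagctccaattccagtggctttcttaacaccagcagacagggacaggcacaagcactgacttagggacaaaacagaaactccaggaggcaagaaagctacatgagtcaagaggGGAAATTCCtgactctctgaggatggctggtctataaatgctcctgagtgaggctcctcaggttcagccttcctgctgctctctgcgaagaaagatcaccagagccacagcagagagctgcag
Nfkbia: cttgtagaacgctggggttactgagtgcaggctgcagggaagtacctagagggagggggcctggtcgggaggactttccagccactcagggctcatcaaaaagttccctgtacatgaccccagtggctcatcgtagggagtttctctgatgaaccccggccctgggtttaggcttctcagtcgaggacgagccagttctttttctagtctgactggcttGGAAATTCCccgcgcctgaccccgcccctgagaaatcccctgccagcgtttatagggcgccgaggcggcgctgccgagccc

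The motif began at base -83 from the start of Cxcl1, -87 of Cxcl6, -186 of Cxcl10, -73 of Cxcl11 and -31 of Nfkbia. Cxcl6, a further neutrophil chemokine, was called with a small difference, 6.65, 6.64 and 6.98 in the LSEC fraction, against 6.24, 6.33 and 6.35 in the hepatocyte fraction (0.45 ± 0.16, adjusted p = 0.032).

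Immediate early genes, which cells switch on within minutes of a stimulus, were listed with stress response genes. Of 31 members 13 were called higher (41.9%) and 6 lower (19.4%), beside 18.5% and 21.9% of all genes, with a median of 0.31. Zfp36, which shortens the life of cytokine mRNAs, rose by 1.20, Ier2 by 1.17 and Dusp1, a phosphatase of MAP kinases, by 1.08. The 6 called lower included Hmox1, heme oxygenase 1, at -1.31, Hspa1a, an inducible HSP70, at -1.19, and Egr2 at -1.42, whose second probe set at 0.18 was not called. Of 25 interferon-response genes 7 were called higher (28%) and 5 lower (20%), beside 18.5% and 21.9% of all genes. Bst2, which tethers budding virus, read 12.06, 12.00 and 12.07 in the LSEC fraction, against 10.17, 9.26 and 9.22 in the hepatocyte fraction (2.49 ± 0.31, adjusted p = 3.2e-06), whereas Rsad2, an antiviral radical SAM enzyme, differed by -1.26 and Gbp2, a guanylate-binding protein, by -1.22.

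Genes of the urea cycle and amino acid catabolism were called higher for 17 of 29 members, with Oat, ornithine aminotransferase, as the 1 called lower. The shares were 58.6% higher and 3.45% lower, beside 18.5% and 21.9% of all genes, and the median was 0.73. Cps1, which commits ammonia to the urea cycle, read 13.19, 13.28 and 13.38 in the LSEC fraction, against 11.77, 11.67 and 11.69 in the hepatocyte fraction (1.57 ± 0.15, adjusted p = 1.0e-07). Mat1a, the S-adenosylmethionine synthase of adult liver, read 12.36, 12.39 and 12.56 in the LSEC fraction, against 10.50, 10.45 and 10.25 in the hepatocyte fraction (2.04 ± 0.19, adjusted p = 4.8e-08). The LSEC arrays were the higher ones throughout. Got1, an aspartate aminotransferase, differed by 1.95, Hgd, of tyrosine breakdown, by 1.64, and the urea cycle genes Ass1, Asl and Otc by 1.03, 0.80 and 0.79, while Arg1 differed by -0.10 without a call.

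Of 32 complement and coagulation genes 17 were called higher (53.1%) and 3 lower (9.38%), beside 18.5% and 21.9% of all genes (median 0.64). Plg, plasminogen, read 10.63, 10.82 and 10.68 in the LSEC fraction, against 8.44, 8.29 and 8.63 in the hepatocyte fraction (2.26 ± 0.17, adjusted p = 1.3e-09), and C9, a pore-forming complement protein, differed by 2.13 ± 0.23. The 3 lower ones were Plau at -4.03, F3, tissue factor, at -0.98 and Masp1, a lectin pathway protease, at -0.63, with neither of its other probe sets called. Among 25 iron, heme and acute phase genes, 8 were called higher (32%) and 4 lower (16%), beside 18.5% and 21.9% of all genes. Cp, ceruloplasmin, rose by 1.14 on the probe set used, and the others gave 1.02, called, and -0.29, not called. Lcn2, an iron-sequestering lipocalin, rose by 0.97. Alas1, the first enzyme of heme synthesis, read 10.44, 10.60 and 10.62 in the LSEC fraction, against 12.18, 12.16 and 12.03 in the hepatocyte fraction (-1.57 ± 0.10, adjusted p = 7.3e-11).

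Lipid lists differed in direction. Of 26 genes of fatty acid and triglyceride synthesis and binding, 11 were called higher (42.3%) and 6 lower (23.1%), with a median of 0.10. Of 30 genes of fatty acid oxidation and the peroxisome, 3 were called higher (10%) and 17 lower (56.7%), with a median of -0.35. Of all genes 18.5% were called higher and 21.9% lower, so the lower calls of the synthesis list lay near that share. Scd, the delta-9 desaturase, read 13.32, 13.36 and 13.31 in the LSEC fraction, against 11.47, 11.13 and 11.71 in the hepatocyte fraction (1.90 ± 0.22, adjusted p = 9.7e-07). Fabp5, a fatty acid-binding protein, differed by 1.93, Thrsp, a lipogenic regulator, by 1.21, Fasn, fatty acid synthase, by 1.15, and Srebf1, the transcription factor of lipogenesis, by 1.08. The LSEC and hepatocyte arrays of these genes did not overlap. Called lower in the same list were Fabp1, the liver fatty acid-binding protein, at -1.73 and Angptl4, an inhibitor of lipoprotein lipase, at -1.37.

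In the oxidation list, Cpt1a, which carries fatty acids into mitochondria, read 9.09, 8.74 and 8.82 in the LSEC fraction, against 11.76, 11.80 and 11.80 in the hepatocyte fraction (-2.90 ± 0.16, adjusted p = 1.4e-11). Pex11a, which divides peroxisomes, differed by -2.34 and Acaa2, a thiolase, by -1.75. Phyh, of phytanic acid oxidation, was the largest rise of the list at 1.13. Ppara, a nuclear receptor that controls fatty acid oxidation, differed by -0.59 ± 0.17 (adjusted p = 0.0080), its partner Rxra rose by 1.05 ± 0.17 and Ppard by 0.81 ± 0.16.

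In the cholesterol list 9 of 21 genes were called higher (42.9%) and 2 lower (9.52%), beside 18.5% and 21.9% of all genes (median 0.34). Insig1, which holds the sterol sensor in the endoplasmic reticulum, rose by 0.84 and Fdft1, squalene synthase, by 0.82, although a second Fdft1 probe set at 0.32 was not called. Scarb1, the HDL receptor, rose by 0.44 ± 0.15 (adjusted p = 0.025), and, outside the list, the efflux pumps Abca1 and Abcg1 were called lower at -0.73 and -1.34. For Abca1 one further probe set was called at -0.53 and those at 0.11 and -0.10 were not, and for Abcg1 one was called at -1.21 and one at 0.20 was not. Bile acid genes were called lower for 10 of 26 (38.5%) and higher for 4 (15.4%), beside 21.9% and 18.5% of all genes. The uptake carrier Slco1b2 read 8.80, 8.52 and 8.59 in the LSEC fraction, against 6.75, 6.78 and 7.46 in the hepatocyte fraction (1.64 ± 0.19, adjusted p = 1.5e-06), whereas the related Slco1a4 differed by -2.16 and Slco1a1 by -1.60. Slc10a1, the main bile acid carrier, differed by 0.29 (adjusted p = 0.15).

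Among conjugation and antioxidant genes the calls were mainly downward. Of 34 phase II genes 13 were called lower (38.2%), 2 higher (5.88%) and 19 not called, beside 21.9% and 18.5% of all genes. Gsta4, a glutathione transferase, differed by -1.67 and Ephx2, the soluble epoxide hydrolase, by -1.52. Of 21 genes of glutathione and Nrf2 defence 13 were called lower (61.9%) and 1, Gpx1, higher (4.76%), with a median of -0.55. Slc7a11, the cystine carrier, read 8.09, 8.03 and 7.91 in the LSEC fraction, against 9.84, 9.88 and 10.17 in the hepatocyte fraction (-1.95 ± 0.13, adjusted p = 1.5e-10), and Gclc, the first enzyme of glutathione synthesis, differed by -1.45. Nfe2l2, the gene of Nrf2, differed by 0.01 without a call. Respiratory chain genes mostly stayed uncalled, with 1 of 34 higher and 4 lower, as did housekeeping genes, with 1 of 15 lower, Tfrc, the transferrin receptor, at -1.08.

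**Figure D4:**
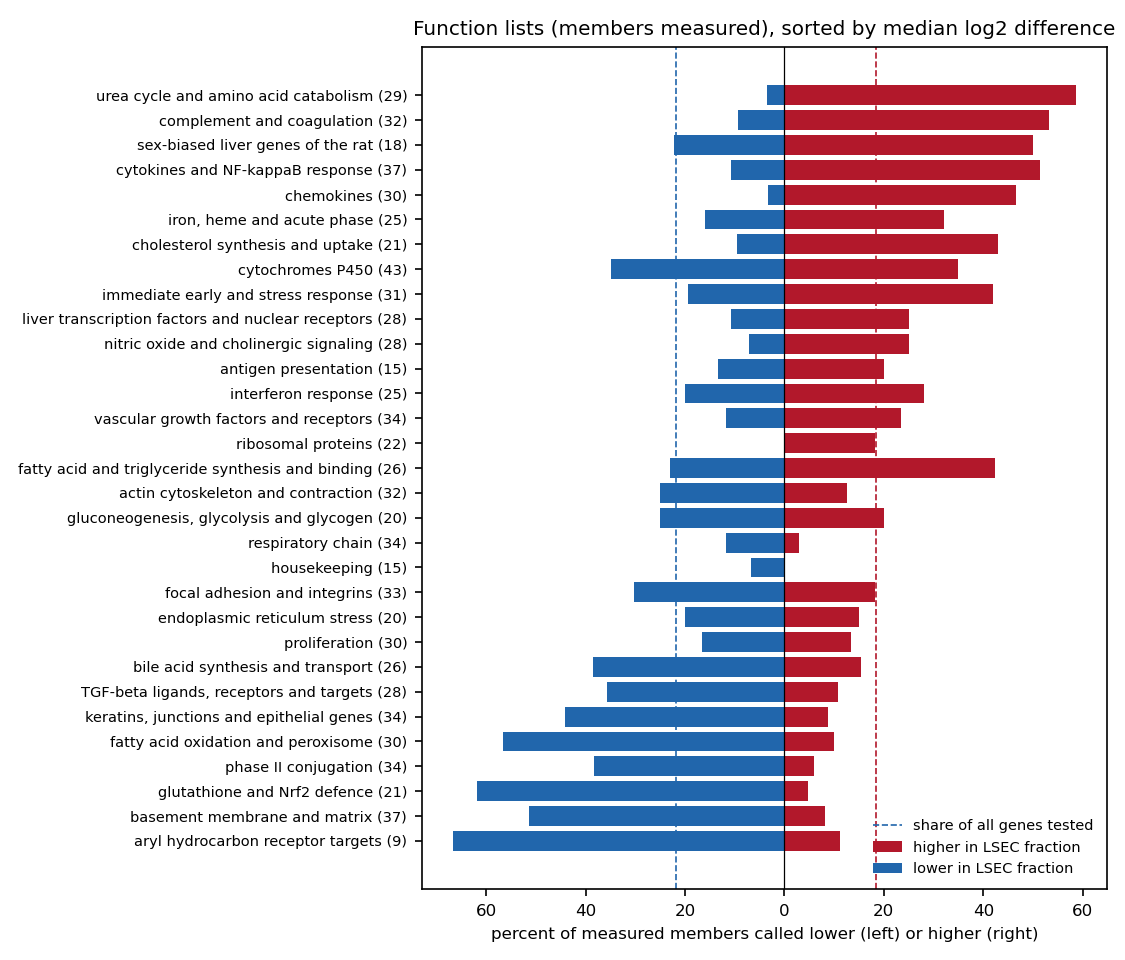
Percent of the measured members of each function list (number in brackets) called lower (blue, to the left) or higher (red, to the right) in the LSEC fraction, sorted by the median log2 difference of the list, with dashed lines at the shares of all genes, 21.9 and 18.5. Urea cycle, complement, cytokine and chemokine lists extend to the right, and AhR, matrix, Nrf2 and fatty acid oxidation lists to the left.

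Many matrix and junction genes were called lower, as were the stellate cell, cholangiocyte and mesothelial markers given above, and the part of those cells was not tested. Of 37 basement membrane and matrix genes 19 were called lower (51.4%) and 3 higher (8.11%), beside 21.9% and 18.5% of all genes (median -0.61). Col4a1, the collagen of basement membranes, read 7.30, 7.03 and 7.03 in the LSEC fraction, against 10.41, 10.53 and 10.92 in the hepatocyte fraction (-3.50 ± 0.35, adjusted p = 1.3e-07). Col1a1 and Col3a1, fibrillar collagens, differed by -3.81 ± 0.66 and -3.96 ± 0.80, and Vim, vimentin, by -3.75 ± 0.18. Col3a1 read 9.94, 10.31 and 11.10 in the hepatocyte fraction, highest in replicate 3 as in Efemp1. Lum, a defining gene of fibroblasts, was at 3.51 to 3.80 on all 6 arrays, and Pdgfrb, Rgs5 and Reln of pericytes and stellate cells were not called. The 3 called higher were Mmp14, a membrane-bound protease, at 1.56, Timp3, a protease inhibitor, at 0.98, with none of its 3 other probe sets called, and Col18a1, the source of endostatin, at 0.87.

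Cldn4, a duct claudin, read 6.98, 6.94 and 7.35 in the LSEC fraction, against 10.96, 10.93 and 10.95 in the hepatocyte fraction (-3.85 ± 0.23, adjusted p = 3.5e-11). Epcam, an epithelial adhesion molecule, differed by -2.12, Krt19, a duct keratin, by -2.01, Gja1, connexin 43, by -2.95 on the probe set used and by -1.10 and, without a call, 0.33 on others, and Cd24 by -2.80. Krt8 and Krt18, the keratins that hepatocytes also make, differed by -0.24 and 0.00, neither called. Of 34 keratin, junction and epithelial genes 15 were called lower (44.1%) and 3 higher (8.82%), beside 21.9% and 18.5% of all genes. Those higher were Cldn2, Cldn14 and F11r.

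Of 28 genes of TGF-beta signalling 10 were called lower (35.7%) and 3 higher (10.7%), beside 21.9% and 18.5% of all genes. The other 15 were not called. Among the ligands Tgfb3 was called lower at -1.92, Tgfb2 at -1.78 and Inhbb, an activin chain, at -1.89, while Tgfb1 differed by 0.03 without a call. The ligand Bmp6 was called higher at 0.43 on the probe set used, but lower at -0.91 and -2.06 on others. Integrins parted: Itgb3 differed by -2.60 and Itga5, the fibronectin receptor chain, by 1.07. Of 33 focal adhesion genes 10 were called lower (30.3%) and 6 higher (18.2%), and of 32 actin genes 8 lower (25%) and 4 higher (12.5%). Neither list lay far from the shares of all genes, 21.9% lower and 18.5% higher. Ezr, ezrin, differed by -1.97 and Actn1, an alpha-actinin, by 0.95. Among vascular growth factors, Vegfa, which LSECs respond to, read 10.92, 10.89 and 10.91 in the LSEC fraction, against 9.73, 9.75 and 9.68 in the hepatocyte fraction (1.18 ± 0.12, adjusted p = 2.2e-07), though its second probe set at 0.02 was not called. Its receptors Kdr and Flt1 were not called on the probe sets used. Of 28 nitric oxide and cholinergic genes 7 were called higher (25%) and 2 lower (7.14%), beside 18.5% and 21.9% of all genes. The list averaged 6.45 in the LSEC fraction and 6.26 in the hepatocyte fraction. Those higher included Camk4 at 0.73 (0.34 without a call on its second probe set), Chrna6 at 0.62 and Chrnd at 0.63. Gucy1b1, a chain of the nitric oxide receptor, was called lower at -1.86.

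Of 28 liver transcription factors 7 were called higher and 3 lower, beside 18.5% and 21.9% of all genes. Foxa3 rose by 1.51 ± 0.18, and Hnf4a, the central factor of hepatocytes, differed by 0.36 without a call. Relative to the mean of HM and CS, the genes at least 2-fold higher in the LSEC fraction stood at a median of 0.79 in the LSEC fraction and -0.48 in the hepatocyte fraction, and the hepatocyte fraction lay nearer to that mean for 147 of 229. The genes at least 2-fold lower stood at a median of -0.97 in the LSEC fraction and 0.43 in the hepatocyte fraction, and the hepatocyte fraction lay nearer for 472 of 646. These genes were chosen for differing between the fractions, so at most one fraction could lie at that mean, and HM and CS themselves differ. Mat1a averaged 12.44 in the LSEC fraction, 10.40 in the hepatocyte fraction, 11.15 in HM and 13.38 in CS. Cyp2c12 averaged 12.96 in the LSEC fraction, 8.90 in the hepatocyte fraction, 9.59 in HM and 11.34 in CS.

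The same pair of fractions exists in the 3DHLK model, whose arrays are separate. There 4937 of the 14218 genes were called higher in the LSEC fraction and 3652 lower. Of 2624 genes called higher in the LSEC fraction of 3DHL, 2287 were called higher in that of 3DHLK (87.2% of the 3DHL calls and 46.3% of the 3DHLK calls) and 43 lower. Of 3113 called lower, 2249 were lower in 3DHLK too (72.3% and 61.6%) and 27 higher. The contrast itself differed between the models for 1467 genes, 10.3% of all, by the interaction term in limma, 968 of them with a more positive value in 3DHL. Cyp1a1 fell by 5.52 in the LSEC fraction in 3DHL and by 2.35 in 3DHLK, a difference of -3.17 (adjusted p = 2.8e-05). Cyp2e1 was higher in the LSEC fraction of 3DHL by 2.33 but lower by 0.64 in 3DHLK, a difference of 2.98 (adjusted p = 2.6e-07). In contrast, Mbl2, Plg and Vim gave differences of 2.49, 2.25 and -3.82 in 3DHLK, within 0.2 of those in 3DHL.

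The hepatocyte fraction of 3DHLK was itself marked by mesenchymal genes. Its stellate cell and fibroblast list averaged 9.81, against 7.94 in the hepatocyte fraction of 3DHL, and Lum, Scara5, Lpl and Srpx averaged 8.55, 10.74, 11.20 and 11.88 there. In the hepatocyte fraction of 3DHL the same 4 genes averaged 3.61, 5.52, 6.04 and 6.91. Eif2s3y, a Y-linked gene, read 8.18 to 8.46 in the hepatocyte fraction of 3DHLK and 8.36 to 9.56 in the KCs of day 3. On all other arrays of day 12, the KCs of 3DHLK included, it read 3.39 to 3.56. The hepatocytes and LSECs were described as from female rats, while the KCs were bought as cryopreserved rat cells of no stated sex. The 6 arrays of the 3DHL fractions were thus all low for Eif2s3y, and the part of these differences in the interaction was not tested.

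**Figure D5:**
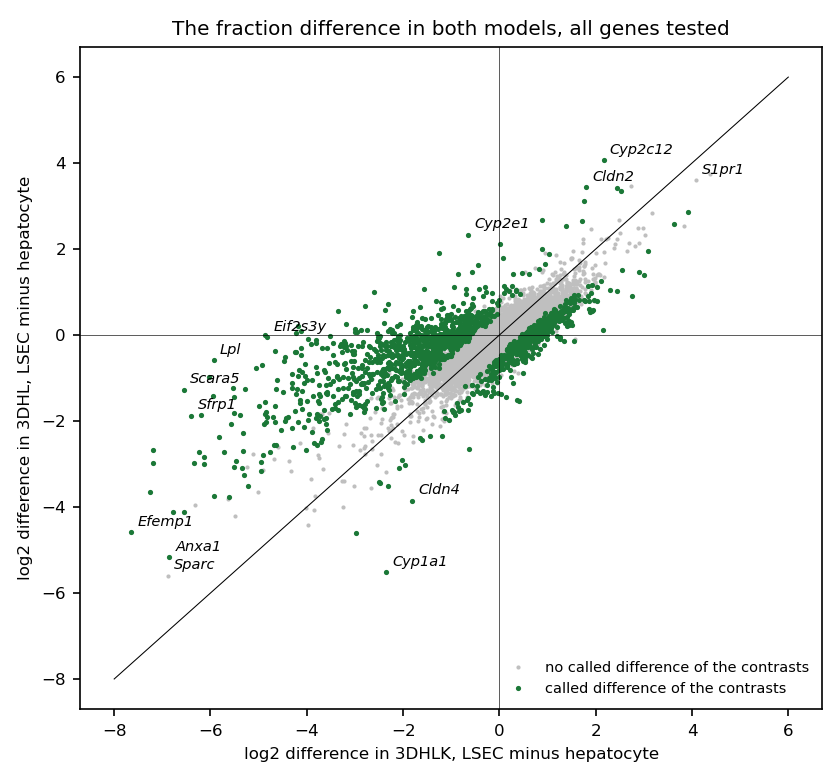
Log2 difference, LSEC minus hepatocyte fraction, in 3DHL (vertical axis) and 3DHLK (horizontal axis) for 14218 genes, with the 1467 genes whose contrast differed between the models in green and the line of equality in black. Scara5, Lpl and Eif2s3y lie far to the left of the line, and Cyp1a1 lies below it.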

How the data were processed

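The deposited table held log2 values that the authors made with RMA in R from Affymetrix rat genome arrays, after quality checks with Simpleaffy. Versions are not given in the sources used here. Per the labels there was NuGen amplification, per the methods standard Affymetrix labelling. Of 31099 probe sets, 20832 named 1 gene, 436 several and 9831 none, including 57 controls, and 4526 genes had several probe sets. Gene IDs of 20764 probe sets matched the RefSeq table. Differences were fitted in limma 3.58.1 (R 4.3.3) with means of 8 groups over 23 arrays, with Benjamini-Hochberg adjustment across the 14218 genes. The number of arrays limits the precision. The scripts were tested on simulated data. Figures used matplotlib 3.10.9 (Python 3.11.15), and promoters came from RefSeq GRCr8.

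Named genes were the 12 largest called rises and falls without overlap, skipping uncharacterised loci, the 3 largest called each way in each list, defining endothelial markers, the 2 highest members of each marker list, genes the study names for these cells, and the 6 largest each way between the models. Other genes named, such as Cps1, Cyp1a2, Cxcl1, Cxcl6, Tnf, Fasn, Col1a1 and Hnf4a, are list members chosen after their values were seen. The members and lists were chosen with earlier results of these data known. Alternatives covered the arrays fitted, the filter on low values, the choice of probe set, cyclic loess, housekeeping centring, eBayes settings, a replicate block and leaving out each array.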

Additional observations from a re-analysis of the deposited data

Results flagged for a closer look

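The difference between the fractions changed with the model, 3DHL minus 3DHLK, for 1467 genes by the interaction term in limma, and these named genes are among them. More positive in 3DHL were Cyp2c12 (1.90), Cldn2 (1.64), Slk (0.98), Cyp2c23 (0.83), Pde4b (1.36), G0s2 (1.79), Anxa1 (1.69), Efemp1 (3.06), Col5a2 (2.66) and Cav1 (2.43). The largest such values were those of Lpl (5.36), Scara5 (5.29), Srpx (5.06), Lum (4.87), Eif2s3y (4.77) and Sfrp1 (4.52), all genes that stood high in the hepatocyte fraction of 3DHLK.

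More negative in 3DHL were Cyp1a1 (-3.17), Cldn4 (-2.04), Fosb (-2.04), Cyp3a23-3a1 (-2.01), Sult2a2 (-1.92), Csad (-1.87), Nefl (-1.62) and Pnpla3 (-1.04).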

How the results depend on the processing

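Genes called higher numbered 2624, but 4174 with only the arrays compared, 1683 without the genes under the 30th percentile of level, where the median of all genes was -0.11, and 1651 to 2078 with each array left out, lowest without hepatocyte 3DHL replicate 3. Genes called lower ran from 2369 to 2813 with each array left out. The counts of genes at least 2-fold higher or lower stayed within 1.5 times under every alternative run.

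The replicate block was fitted on only the arrays compared, where it gave 3917 genes higher and 4064 lower, against 4174 and 4227 on the same arrays without it. The deviations of same-numbered arrays of 3DHL from their group means correlated at -0.04, -0.01 and -0.07. With 3 arrays of each fraction such values cannot tell whether same-numbered arrays came from the same culture, and the labels give only the number.

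Genes with a more negative contrast in 3DHL than in 3DHLK numbered 499, but 1497 with only the arrays compared, 923 on those arrays with the replicate block, 1632 without the KC monolayers and 262 to 565 with each array left out. The arrays whose removal moved this count most were LSEC 3DHL replicates 1 (262) and 2 (294), LSEC 3DHLK replicates 2 (312) and 3 (276), hepatocyte 3DHL replicates 1 (264) and 2 (286) and hepatocyte 3DHLK replicate 3 (310). The more positive ones ran from 750 to 980. Averaged over all their probe sets, Bmp6 (-0.56), Canx (-0.022), Kdr (-0.73) and Nfkbiz (0.094) changed sign. The cause was not tested.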
